A study of Mus musculus with 3 samples.

Results

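The cells described here were T and NK cells found among the dissociated cells of mouse dorsal root ganglia (DRGs), the ganglia that hold the cell bodies of sensory neurons. They were chosen by their transcripts. A cell was taken when at least 2 of the 6 genes Cd3e, Cd3d, Cd3g, Trbc2, Trac and Nkg7 had a unique molecular identifier (UMI, the tag by which each captured mRNA molecule is counted once), and when genes of macrophages, B cells, endothelial cells, Schwann cells and neurons were at or near 0. The rule found 63 cells among 9662 cells that passed a filter (500 genes or more, and no more than 20% of UMIs from mitochondrial genes): 9 of 3152 in the naïve library, 19 of 2682 at 7 days and 35 of 3828 at 14 days after injury.

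All mice were male C57BL/6J wild types of 13 weeks. The naïve mice were untreated, and the others had a spared nerve injury (SNI, in which some branches of the sciatic nerve are cut and others are left intact) in both hind legs 7 or 14 days earlier. Each condition was 1 library of the 8 L3 and L4 DRGs of 2 mice, perfused before dissection, so mice could not be separated and no test between conditions was possible. The study's Methods name female mice of another age and its Results name a partial nerve ligation, although its Discussion names spared nerve injury. The groups here follow the sample labels. Intervals below are exact 95% intervals and cover counting error only.

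T cells recognise antigens through a receptor whose variable chains are either alpha and beta or gamma and delta, and signal through the invariant CD3 chains that Cd3e, Cd3d and Cd3g encode. NK cells lack this receptor and kill through granules, of which Nkg7 encodes a membrane protein shared with cytotoxic T cells. In sensory ganglia, lymphocytes are a small population beside resident macrophages, and their entry after nerve injury has been linked to pain behaviour.

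The libraries held 23107376, 22343246 and 36550911 UMIs in 3748, 3281 and 4908 barcodes. Between 1 and 5 kept barcodes were shared by any pair of libraries, and none of them belonged to a T or NK cell. Of the 9662 cells kept, 72 (0.745%) were called as doublets by Scrublet, none of them a T or NK cell, and no cell was removed for it. The T and NK cells summed to 20936 UMIs in the naïve library, 67350 at day 7 and 103486 at day 14, with medians of 2247, 3474 and 2658 UMIs per cell. A single UMI was therefore worth 47.8, 14.8 and 9.66 CPM (counts scaled to a total of 1000000) in the 3 sums. The naïve sum was the shallowest, and 3 UMIs, the limit that a count of 0 sets, corresponded there to 143 CPM.

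The genes that selected the cells lie in few loci (mm10, the genome build named for the files, with positions from GENCODE vM21). Cd3g (chromosome 9, 44969572 to 44980431), Cd3d (44981786 to 44987339) and Cd3e (44998740 to 45009627) share a stretch of 40056 bases. Trbc2, a constant segment of the beta chain, lies on chromosome 6 (41546730 to 41548352), 6848 bases from Trbc1, its near-identical partner. Trac, the alpha constant segment, lies on chromosome 14 (54220521 to 54224206) with the delta segment Trdc 71652 bases before it, and Nkg7 lies on chromosome 7 (43437073 to 43438249). Reads of Trbc1 and Trbc2, and those of the gamma segments Tcrg-C1, Tcrg-C2 and Tcrg-C4, could be split between copies, and whether the counting used strand was not given in the sources used here.

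The genes of the rule were present in these cells by selection. The following values describe the selection and test nothing. Of all 63 cells, 57 had a UMI of a CD3 gene, 55 had it together with Trac or Trbc2, and 48 had Nkg7. Trbc2 was found in 8 of 9, 16 of 19 and 30 of 35 cells (naïve, day 7, day 14), at 955, 950 and 976 CPM. Trac was found in 4, 14 and 26 cells, at 382, 728 and 696 CPM. Cd3e was found in 6, 14 and 22 cells, at 669, 564 and 493 CPM. Nkg7 stood at 1958 CPM in the naïve sum and at 861 and 628 CPM after injury, and 14 of its 41 naïve UMIs came from 1 NK cell. Cells of a myelinating Schwann gate should lack these genes. Each of the 6 genes, taken singly, had a UMI in no more than 0.428% of them in any library. Median depths there were 2687, 3729 and 3842 UMIs, against 2247, 3474 and 2658 in the T and NK cells. Ptprc, the common leukocyte antigen CD45, had a UMI in 9 of 9, 19 of 19 and 33 of 35 cells.

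Cells just inside the rule resembled the rest in this marker and cells just outside did not. Of the 10 cells with exactly 2 of the 6 genes, 9 (90.0%) had Ptprc. Of the 51 cells with exactly 1 gene that were within the other limits, 13 (25.5%) had it, and 35 of the 51 were held by Trac alone. In 8 cells Nkg7 was the only gene of the rule, and 7 of these had a UMI of an NK receptor gene (Ncr1, Klrb1c or Klre1). Of these 7, 2 were from day 7 and 5 from day 14, so the rule left out cells that its own label could cover. Another 5 cells reached 2 genes but failed a limit, 1 in the naïve library, 1 at day 7 and 3 at day 14.

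T and NK cells made up 0.286% of the cells kept in the naïve library (0.131 to 0.541), 0.708% at day 7 (0.427 to 1.10) and 0.914% at day 14 (0.638 to 1.27). Their share was 2.48 times the naïve share at day 7 (1.07 to 6.23) and 3.20 times at day 14 (1.51 to 7.58), both above 1 in counting error. Day 14 over day 7 was 1.29 (0.718 to 2.39), an interval that holds 1. With every cell thinned to 1500 UMIs the shares were 0.298%, 0.767% and 0.825%, with 0, 0 and 2 T and NK cells left out as shallower. With every gene of other cells in the rule at 0, 7, 11 and 27 cells remained, and the day 7 ratio was log2 0.89 (-0.61 to 2.49), whose interval holds no change.

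Among leukocytes the picture was different. Cells with a Ptprc UMI made up 2.98%, 9.96% and 9.14% of the cells kept. T and NK cells were 9 of 94 of them in the naïve library (9.57%, 4.47 to 17.4), 19 of 267 at day 7 (7.12%, 4.34 to 10.9) and 33 of 350 at day 14 (9.43%, 6.58 to 13.0). Against naïve, these shares were 0.743 times as high at day 7 (0.320 to 1.87) and 0.985 times at day 14 (0.461 to 2.34), both with intervals that hold 1. For each 100 cells of a macrophage gate (Csf1r and C1qa summing to at least 2 UMIs) there were 12.3, 8.30 and 11.7 T and NK cells. The macrophage gate itself held 2.32%, 8.54% and 7.81% of the cells kept. A share of cells depends on what else came through dissociation, and a gain of lymphocytes cannot be told apart here from a loss of other cells.

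**Figure D1:**
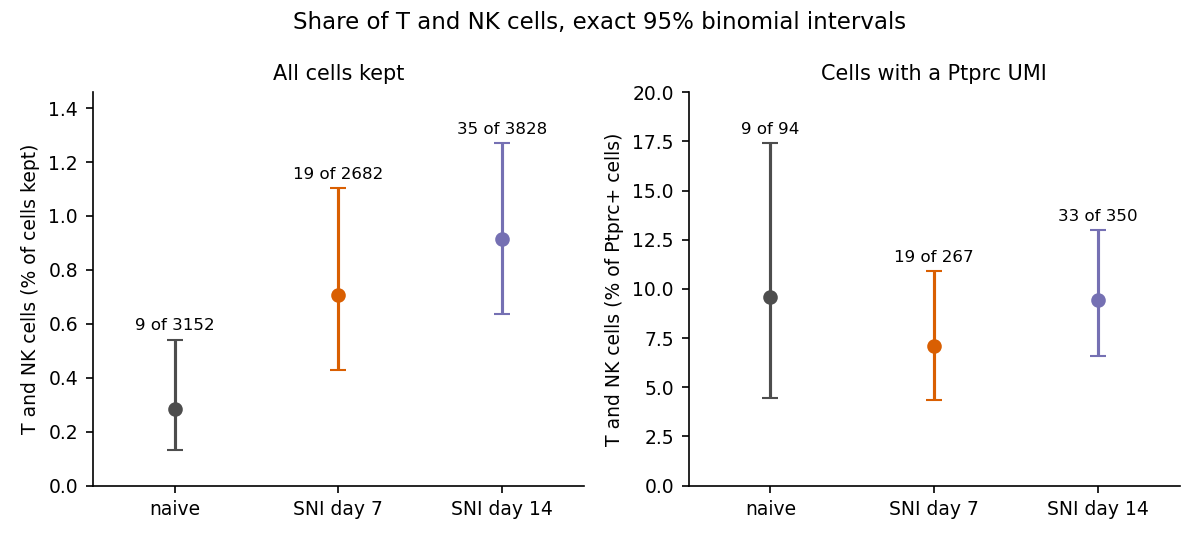
T and NK cells as a percent of all cells kept (left) and of the cells with a Ptprc UMI (right) in the naïve, day 7 and day 14 libraries; points are shares, bars are exact 95% binomial intervals, and labels give the counts. The share of all cells stands at 0.286%, 0.708% and 0.914%, whereas the share of Ptprc+ cells stands at 9.57%, 7.12% and 9.43% with overlapping intervals.

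Other blood-borne cells gave a comparison. A neutrophil gate held 16, 19 and 26 cells (0.508%, 0.708% and 0.679%), 1.40 times the naïve share at day 7 (0.680 to 2.90) and 1.34 times at day 14 (0.691 to 2.67). A B cell gate held 13, 4 and 19 cells, or 0.362 times (0.0859 to 1.17) and 1.20 times (0.564 to 2.65) the naïve share. All 4 of these intervals hold 1, unlike those of the T and NK cells, and whether the classes differed in their change was not tested.

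Beyond the selecting genes, 15 genes stood out in all 3 libraries by the lowest of their CPM ratios over other cells. They were Ms4a4b, Gimap3, Il2rb, Cd28, Trbc1, Cxcr6, Ccl5, Ctsw, Skap1, Gimap7, Ly6c2, Lck, Ltb, Cxcr3 and Lat, with lowest ratios from 421 (Ms4a4b) to 131 (Lat). Ms4a4b, a membrane protein of T and NK cells, summed to 2770, 1633 and 1324 CPM, against at most 2.14 CPM in all other cells. Gimap3, a lymphocyte GTPase, was found in 8 of 9, 18 of 19 and 31 of 35 cells. Lck, the kinase that phosphorylates the CD3 chains, was found in 7, 14 and 22 cells, at 669, 549 and 425 CPM. Cd28, a costimulatory receptor, was found in 6, 13 and 23 cells, and Il2rb, the beta chain of the interleukin 2 and 15 receptors, in 7, 13 and 28. These genes describe the cells and were not compared by a test, since the cells were picked by transcripts that go with them.

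The cells were sorted further by marker gates applied in order. CD8 cells had Cd8a or Cd8b1 without Cd4, CD4 cells had Cd4 without the CD8 genes, gamma-delta cells had Trdc or a gamma constant segment with a CD3 gene, and NK cells had Ncr1, Klrb1c or Klre1 without CD3. The gates held 10, 14, 13 and 5 cells, and 21 cells remained untyped. By library, the CD8 gate held 1, 5 and 4 cells, the CD4 gate 2, 6 and 6, the gamma-delta gate 3, 5 and 5, and the NK gate 1, 1 and 3. The intervals of each gate's share of the T and NK cells overlapped between all libraries. Untyped cells were 2 of 9 in the naïve library (22.2%, 2.81 to 60.0), 2 of 19 at day 7 (10.5%, 1.30 to 33.1) and 17 of 35 at day 14 (48.6%, 31.4 to 66.0). The day 14 and day 7 intervals barely overlapped. Day 14 cells were shallower than day 7 cells, with medians of 2658 and 3474 UMIs. With every cell thinned to 1500 UMIs the untyped share was 35.0% in the naïve library, 28.9% at day 7 and 57.4% at day 14.

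**Figure D2:**
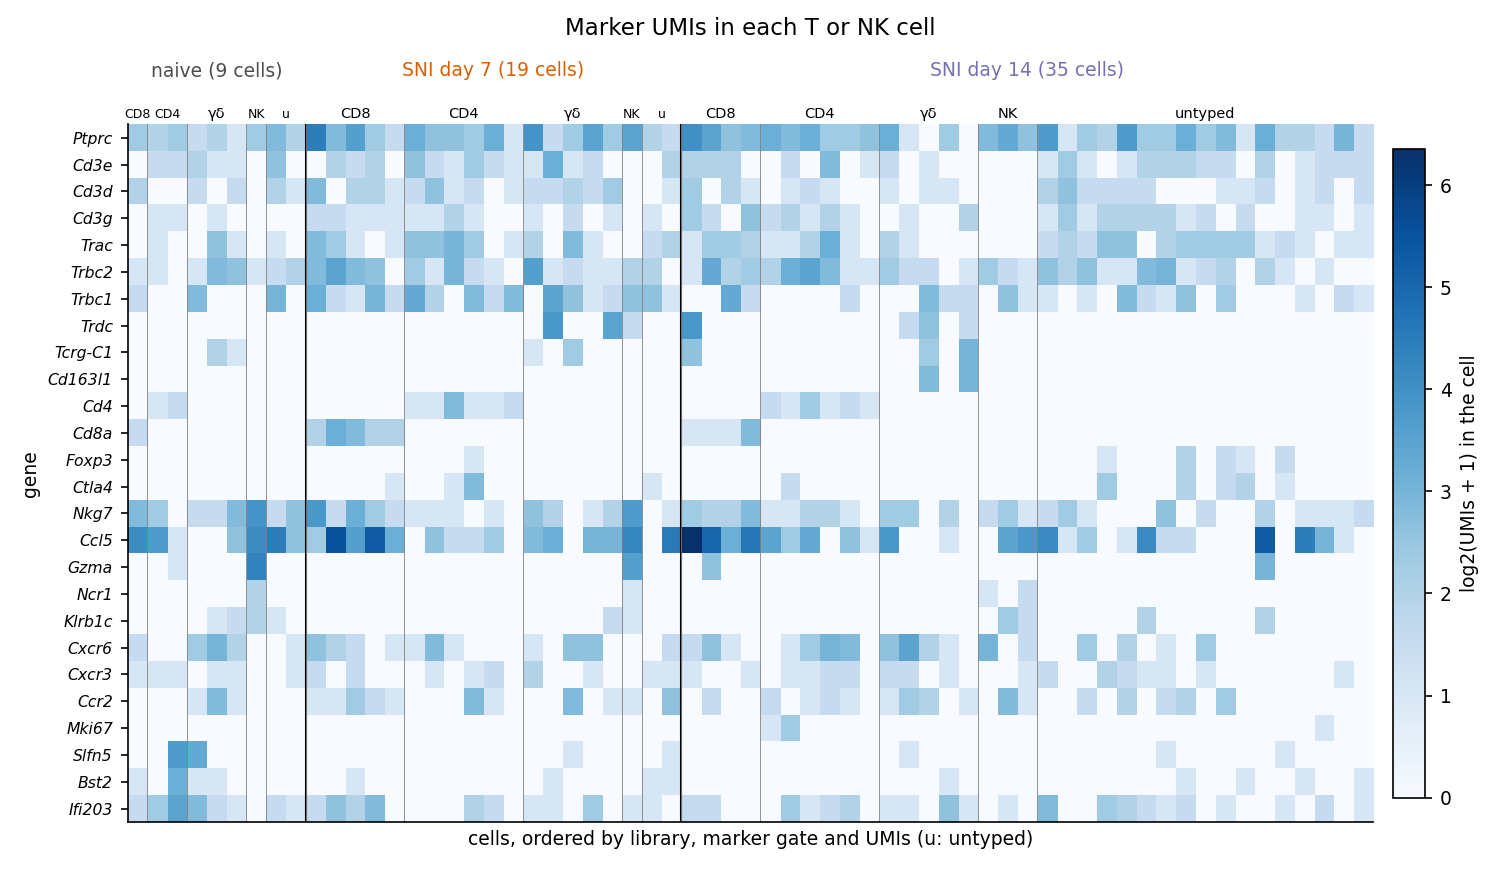
UMIs of 26 marker genes (rows) in each of the 63 T and NK cells (columns), as log2(UMIs + 1), ordered by library and by marker gate (CD8, CD4, γδ for gamma-delta, NK, untyped or u). Ccl5 and Nkg7 run through CD8 and NK cells, and in the NK cells Nkg7 follows from the rule. Foxp3 appears with Ctla4 in 6 cells of the injured libraries, and Slfn5 is dark in only 2 cells, both naïve.

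CD8 cells were the strongest source of Ccl5, a chemokine of activated cytotoxic and memory cells. All 10 had Ccl5 and Nkg7, and they held 267 of the 584 Ccl5 UMIs of the 63 cells, 81 of them in 1 cell. The untyped cells held 158. Ly6c2, a marker of memory CD8 cells, was found in 8 of the 10. The CD8 cell with the most Ccl5, from day 14, had 81 Ccl5 UMIs among 4960 UMIs. It had 1 Cd8a UMI, no Cd8b1, 13 Trdc UMIs and 5 of Tcrg-C1, beside 1 UMI each of Trac and Trbc2. Its gate thus rested on 1 molecule, while most of its receptor UMIs were of gamma-delta genes. Cd8b1, the beta chain of the CD8 coreceptor, had 0, 20 and 11 UMIs in the 3 libraries, against a naïve sum in which 0 UMIs allow up to 143 CPM.

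CD4 cells carried less of this programme. Nkg7 was found in 10 of 14 and Ccl5 in 11 of 14, at 1320 CPM against 6412 CPM in the CD8 cells. The CD8 value includes the 81 UMIs of the cell with gamma-delta transcripts. Cd28 was found in 12 and Cd5, a dampener of receptor signals, in 8. No CD4 cell had Klrb1c, and no CD8 cell had it either. Macrophages of the mouse also carry some Cd4, with a UMI in 5.48%, 6.11% and 8.03% of the macrophage gate. The rule allowed at most 1 UMI of Csf1r and C1qa together, and all 63 T and NK cells had 0 UMIs of Csf1r, C1qa and Lyz2. Genes of a macrophage list had 0, 1 and 8 UMIs in the 3 libraries. Whether any Cd4 UMI came from macrophages was not tested.

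A small group of cells had Foxp3, the transcription factor of regulatory T cells. A Foxp3 UMI was found in 0 of 9 cells in the naïve library, in 1 of 19 at day 7 and in 5 of 35 at day 14 (14.3%, 4.81 to 30.3). With a limit of 3 counts, 0 of 9 allows up to 33.3% of cells with a UMI, which does not limit the cells that express the gene. All 6 also had Ctla4, the inhibitory receptor that competes with Cd28, and Ikzf2, which encodes Helios. Those 6 cells held 57 Ikzf2 UMIs, at 3421 CPM. Izumo1r (folate receptor 4) and Tnfrsf18 (GITR) were each found in 5 of the 6. None had Nkg7, Cxcr6 or a gamma-delta constant segment searched (Trdc, Tcrg-C1 and Tcrg-C2), and 2 had Ccl5. Cd4 was found in only 1 of them, so the 5 others, all from day 14, stood among the untyped cells. Summed over all T and NK cells, Ctla4 had 0, 9 and 15 UMIs and Ikzf2 had 7, 25 and 85 UMIs (334, 371 and 821 CPM). With 9 naïve cells, a difference in this group between naïve and injured libraries was not detectable at this depth.

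Of the 13 gamma-delta cells, 5 had Trdc and 9 had Tcrg-C2, and 7 also had Trac, so the gate mixed cells with both kinds of receptor transcript. Trdc, counted over all 63 cells, was at 0 in the naïve library and had 25 UMIs in 3 cells at day 7 and 22 UMIs in 4 cells at day 14. A pair of day 14 cells stood apart. Both had Cd163l1, a scavenger receptor of gamma-delta cells that make interleukin 17, with 6 and 7 UMIs among 2295 and 1842. They also had Trdc, Tcrg-C1, Tcrg-C2, Maf, Ccr2 and Tcf7, and 1 had Blk (5 UMIs). Neither had Nkg7, Ccl5, Trac or Cd28. Both had the beta segments Trbc2 (3 UMIs in the 2 cells) and Trbc1 (8 UMIs), beside 7 UMIs of Trdc. They were the only 2 of the 63 cells without a Ptprc UMI. No other T or NK cell had a Cd163l1 UMI.

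The 5 NK cells all had Il2rb, 4 had Ccl5 and 4 had Klrd1, which encodes the partner CD94 of NK receptors. Gzma, the granule protease granzyme A, was concentrated in 2 of them, the naïve cell with 19 UMIs and the day 7 cell with 11. Eomes, a transcription factor of NK and memory CD8 cells, was found in 3 of the 5. All 5 had Trbc2 and Nkg7, and none had Trac. A cell without CD3 transcripts could enter the rule only through a pair of Trac, Trbc2 and Nkg7. Trbc2 and Nkg7 were thus present in these cells by selection. Klre1, Klra7 and the other Klr genes belong to families of similar sequence and their counts are uncertain. NK receptor genes were not limited to this gate, since 13 of the 63 cells had Ncr1, Klrb1c or Klre1 and 8 of these also had CD3.

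Genes were then compared between libraries on the summed cells. Of 10390 genes with a UMI, 1672 had at least 20 UMIs over the 3 sums. Of these, 115 (6.88%) were at least 2-fold higher than naïve at both day 7 and day 14 and 35 (2.09%) were at least 2-fold lower, on the log2(CPM + 50) scale. Both comparisons share the naïve library, so they are not independent. Of the 115 higher genes, 112 had 0 to 3 naïve UMIs and 55 had none. With sums below 3 UMIs set to 3 in place of the pseudocount, 26 genes were higher and 70 lower, and with median-of-ratios size factors 200 were higher and 14 lower. The balance of higher and lower genes was thus set by the scaling and by the floor, and the values of single genes follow with their counts.

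The genes named as higher were those with the largest smaller ratio. Cd226, an activating receptor of T and NK cells also called DNAM-1, had 0, 11 and 24 UMIs, in 0, 7 and 14 cells. Against the floor of 3 UMIs in the naïve sum it was at least 1.14-fold higher at day 7 and at least 1.62-fold at day 14. Tagln2, an actin-binding protein, had 1, 24 and 41 UMIs (47.8, 356 and 396 CPM), a ratio of log2 2.90 at day 7 (0.28 to 8.26) and 3.05 at day 14 (0.49 to 8.39). Prdx6, an antioxidant enzyme, had 0, 16 and 18 UMIs and was at least 1.66-fold and 1.21-fold higher. Psma7 (a proteasome subunit), Eif4h (an initiation factor), Cdk6 (a cell cycle kinase), Ranbp1 and AI504432 were also at 0 in the naïve sum and had 10 to 19 UMIs in each injured sum, with bounds of 1.04-fold to 1.35-fold. In all other cells these 8 genes moved by 0.32 or less on the log2 scale. The bounds close to 1 show how little the 9 naïve cells can say about a rise.

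Genes named as lower had more naïve UMIs than those named as higher, but for several of them many came from 1 naïve CD4 cell. Slfn5, an interferon-inducible Schlafen protein, had 21, 2 and 3 UMIs (1003, 29.7 and 29.0 CPM). The ratio was log2 -5.08 at day 7 (-8.22 to -3.05) and -5.11 at day 14 (-7.50 to -3.37). All 21 naïve UMIs came from 2 cells, with 12 in this CD4 cell, which had 2170 UMIs, and 9 in another cell. Bst2, or tetherin, which holds budding virus at the cell surface, had 11, 4 and 5 UMIs. Its ratios were log2 -3.15 (-5.25 to -1.39) and -3.44 (-5.32 to -1.80), and 8 of the 11 naïve UMIs came from the same CD4 cell.

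Samhd1, which depletes nucleotides and restricts viruses, had 29, 26 and 32 UMIs (1385, 386 and 309 CPM), at log2 -1.84 (-2.66 to -1.03) and -2.16 (-2.93 to -1.39). It was found in 7 of 9, 14 of 19 and 17 of 35 cells, so detection differed less than the level. Of the 29 naïve UMIs, 13 were again in the CD4 cell that held most of the naïve Slfn5 and Bst2. Mndal, of the family of interferon-inducible DNA-binding proteins, had 21, 20 and 27 UMIs, and Ifi209 of the same family had 12, 8 and 14. Their ratios were log2 -1.76 and -1.94 for Mndal and -2.27 and -2.08 for Ifi209. Of the 21 naïve Mndal UMIs, 7 were also in that CD4 cell. The lower values of Slfn5, Bst2, Samhd1 and Mndal were thus not separate observations. Ifi203, Ifi209 and Mndal lie within 311756 bases of chromosome 1, and Mndal and Ifi203 overlap, so their counts could be split between copies. Gzma had 20, 11 and 12 UMIs, of which 19 naïve UMIs came from the NK cell above. Ppp4r2, a phosphatase subunit, had 8, 5 and 8 UMIs, and Ptges3, a cochaperone of HSP90, had 16, 15 and 21.

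**Figure D3:**
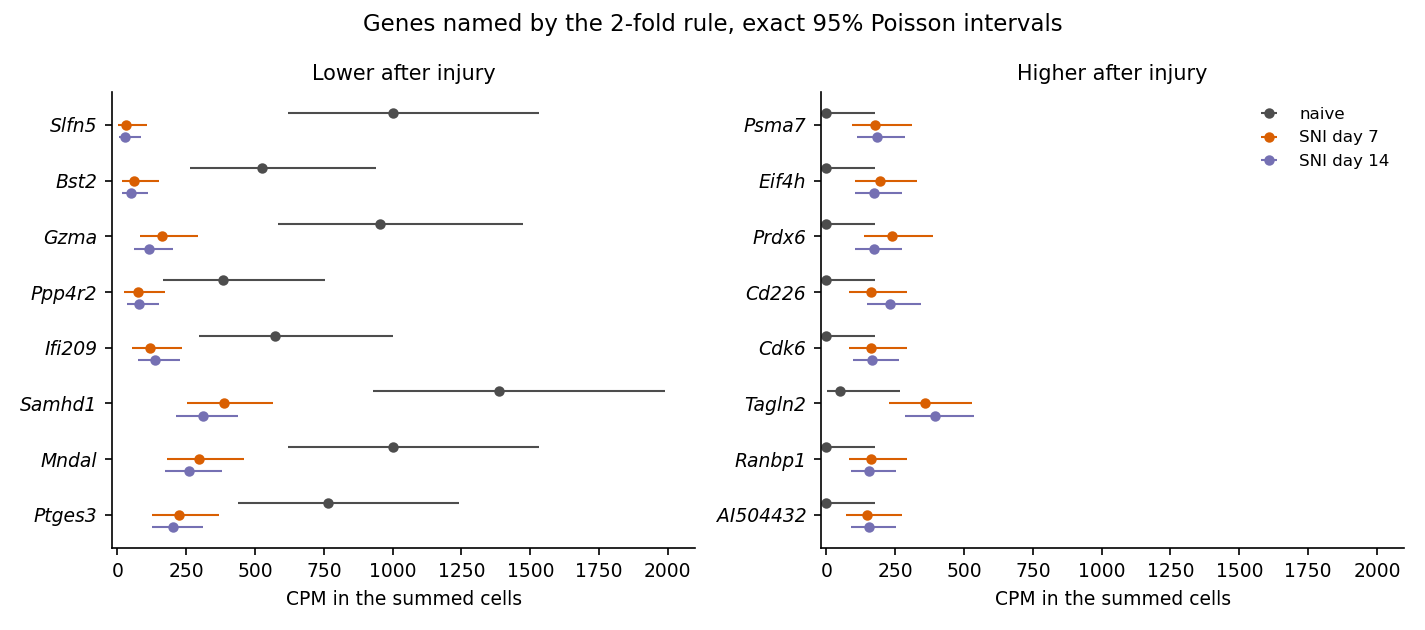
CPM of the 8 genes named as lower (left) and the 8 named as higher (right) in the summed T and NK cells of the naïve (grey), day 7 (orange) and day 14 (purple) libraries, with exact 95% Poisson intervals. Naïve Slfn5 stands at 1003 CPM against 29.7 and 29.0 CPM after injury, whereas the naïve values on the right are 0 or 1 UMI with wide intervals.

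Type I interferon acts through STAT and IRF factors that bind an element with spaced GAAA repeats in the promoters of its target genes. The windows from 250 bases before to 50 bases after the start of each gene (RefSeq, GRCm38.p6) were searched for GAAANNGAAA on both strands, and 1131 of 32851 windows (3.44%) held it. All 8 genes named as lower had a window, and 4 of them (Slfn5, Bst2, Gzma and Mndal) held the motif. Of the 8 named as higher, 5 had a window and 0 held it. The 3.44% counts windows whereas the other values count genes, and no comparison was tested. The sites are shown because these 4 genes were named as lower, although 19 of the 20 naïve Gzma UMIs came from 1 NK cell without Slfn5 or Bst2 UMIs. Each line is 30 bases of the gene's own strand, with the motif in capitals on whichever strand it was found (in Gzma its reverse complement).
Slfn5, chr11:82951937-82951966, plus strand: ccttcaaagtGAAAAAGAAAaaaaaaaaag
Bst2, chr8:71537580-71537609, minus strand: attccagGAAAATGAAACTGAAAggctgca
Gzma, chr13:113101059-113101088, minus strand: cctattttagTTTCATTTTCcagctctaca
Mndal, chr1:173880204-173880233, minus strand: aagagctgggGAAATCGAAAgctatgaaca
In Bst2, 2 overlapping matches made 3 GAAA repeats, the first beginning 130 bases before the start. A match describes letters in a window and is neither a bound site nor a cause. In Slfn5 the match ends in a run of adenines.

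A list of 18 interferon-response genes gave the broader view. Summed over the list, the T and NK cells had 139 UMIs in the naïve library (6639 CPM, 5581 to 7839), 109 at day 7 (1618, 1329 to 1952) and 207 at day 14 (2000, 1737 to 2292). The naïve interval lay above both others. Of the 6 list genes with at least 20 UMIs, 3 (Bst2, Ifi203 and Ifi27l2a) were at least 2-fold lower in both injured libraries, beside 2.09% of all genes tested, and 0 were higher. The median ratios of the 6 genes were log2 -1.38 and -1.23, beside 0.0066 and 0.061 over all genes tested. Bst2, with 11, 4 and 5 UMIs, reached the 20 UMIs only with its naïve count, of which 8 UMIs came from 1 cell. Its place among the lower genes was thus not independent of the filter. With the other-cell genes of the rule all at 0, which left 7 naïve cells, the medians were -0.06 and -0.64 and 1 gene of 5 tested was lower. Isg15 had 7, 1 and 3 UMIs, Ifit1 had 9, 2 and 3, and Oasl2 had 5, 0 and 0.

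The cells differed widely. Per 10000 UMIs, the list gave 5.15 to 304 UMIs in naïve cells (median 26.4), 2.11 to 43.2 at day 7 (median 14.0) and 0 to 120 at day 14 (median 10.1). The ranges overlap. The naïve CD4 cell named above held 66 of the 139 UMIs of the list, and it also held 12 of the 21 naïve Slfn5 UMIs. Of the genes of the rule it had only Cd3e (2 UMIs) and Cd3g (1 UMI), with no UMI of Trac, Trbc2 or Trbc1. Without it the naïve sum was 3890 CPM, still above 1618 and 2000. The list was also highest in the naïve library in other cells. It summed to 3640, 1940 and 804 CPM in the macrophage gate, to 917, 409 and 395 CPM in the Schwann gate and to 1401, 832 and 721 CPM over all other cells. The naïve value was thus the highest in each of these classes. With 1 library per condition the library and the injury cannot be told apart.

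**Figure D4:**
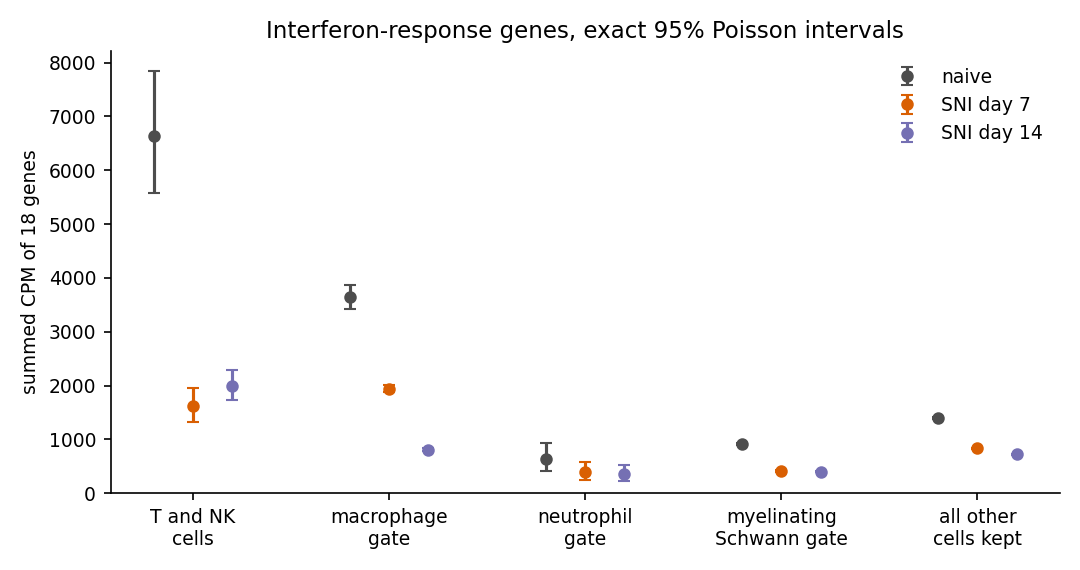
Summed CPM of 18 interferon-response genes in T and NK cells, 3 other gates and all other cells kept, for the naïve (grey), day 7 (orange) and day 14 (purple) libraries, with exact 95% Poisson intervals. The naïve value is the highest in every class shown, at 6639 CPM in T and NK cells and 1401 CPM in all other cells, with overlapping intervals in the neutrophil gate.

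The remaining lists showed few genes past 2-fold in both injured libraries, and calls below follow that rule. Of 20 T cell lineage genes outside the rule, all with at least 20 UMIs, Cd5 (0, 12 and 15 UMIs) and Cd27 (2, 22 and 25 UMIs), a costimulatory receptor, were higher in both injured libraries and 0 were lower, beside 6.88% and 2.09% of all genes tested. None of 12 leukocyte genes was past 2-fold in both injured libraries, with the list at 12801, 12561 and 12630 CPM, although Ptprcap, a CD45-associated protein, stood at 287, 579 and 657 CPM, at log2 0.90 and 1.07. None of the 8 tested of 9 genes of MHC class I was past 2-fold in both, and H2-K1, the most abundant of them, had at least 3 UMIs in every cell. Across all lists, higher calls rested on at most 3 naïve UMIs. With sums below 3 UMIs set to 3, none of the 20 lineage genes was 2-fold higher in both.

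Ccl5 dominated the effector genes. It had 76, 187 and 321 UMIs (3630, 2777 and 3102 CPM), in 7, 15 and 24 cells, with single cells reaching 21, 45 and 81 UMIs. In the Schwann gate 0%, 0.331% and 0.525% of cells had a Ccl5 UMI. Of 12 cytotoxic genes, 4 were tested and Gzma was the only call, as lower, beside 2.09% of all genes tested. Gzmb had 0, 0 and 5 UMIs, Gzmk 0, 1 and 5, and Prf1, perforin, 2, 3 and 3. Only 10 of 63 cells had any of Gzma, Gzmb, Gzmk and Prf1. Cytokine transcripts were scarce. Ifng had 0, 1 and 2 UMIs and Tnf 0, 2 and 2, and 5 of 63 cells had either. Of 12 cytokine genes, Tgfb1 alone was tested, with 3, 9 and 16 UMIs and no call. Il22, Csf2, Lif and Areg were at 0 in all cells, which is a limit of depth in cells with a median of 2695 UMIs and not evidence of absence. Of the 7 checkpoint genes found none was tested, and Pdcd1 had 0, 3 and 2 UMIs.

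Receptors for tissue entry were widespread. Cxcr6, which binds Cxcl16 and marks tissue T cells, was found in 5, 11 and 17 cells, and Cxcr3, the receptor for interferon-induced chemokines, in 6, 9 and 17. Either was found in 43 of 63 cells (68.3%, 55.3 to 79.4). Ccr2, the receptor of monocyte chemokines, was found in 3, 11 and 16. None of the 7 tested of 14 chemokine and migration genes was past 2-fold in both injured libraries. Of 12 residency and activation genes, 4 were tested and none was called, with Cd44 in 5, 11 and 23 cells, Itga1 in 3, 3 and 11, and Itgae at 0 throughout. Of 8 genes of naïve and circulating memory cells 3 were tested, and Tcf7, a factor of such cells, was higher in both injured libraries (3, 29 and 36 UMIs), beside 6.88% of all genes tested. Dapl1, of naïve T cells, had 0, 9 and 0 UMIs.

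Of 12 T cell transcription factors 8 were tested, and Ikzf3 (Aiolos; 0, 9 and 23 UMIs) alone was called, as higher, beside 6.88% of all genes tested. Its 134 CPM at day 7 lay below the 143 CPM that the naïve 0 allows, and with the floor of 3 UMIs no gene of this list was higher. Id2 was found in 8, 14 and 26 cells and Maf in 3, 6 and 21. Of the lists of T and NK subtypes, 2 of 2 CD8 genes, 2 of 3 CD4 genes, 3 of 8 regulatory T genes, 3 of 12 gamma-delta genes and 7 of 12 NK genes were tested. Cd8b1, Ctla4 and Trdc were called higher, Klrb1c (7, 3 and 12 UMIs) was called lower, and no CD4 gene was called, beside 6.88% and 2.09% of all genes tested. Cd8b1 at day 14 (106 CPM) and Ctla4 at day 7 (134 CPM) lay below the 143 CPM that the naïve 0 allows. With the floor of 3 UMIs no gene of the CD8, regulatory T and gamma-delta lists was 2-fold higher in both, and with size factors Klrb1c was no longer called. Of 7 genes of type 2 innate cells Gata3 and Rora were tested and none was called, and Il5 and Il13 were at 0. Mki67 or Top2a, which mark dividing cells, was found in none of 9, 1 of 19 and 5 of 35 cells. All 6 of these had Nkg7 and Ccl5 and none had Foxp3, and their median depth was 3109 UMIs beside 2695 over all 63. The day 7 cell had 4 Top2a UMIs and 1 day 14 cell had 4 Mki67 UMIs, whereas each of the others had 1 UMI. Of 12 cell cycle genes, 1 was tested and none called. The list summed to 621, 906 and 1063 CPM, against 939, 941 and 998 CPM in all other cells.

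Genes of opioid and neuropeptide signalling, through which T cells have been linked to pain, had few UMIs, which at this depth does not show absence. Penk and Vipr1 each had 1 UMI, at day 7, and Pdyn, Oprm1 and Bdnf were at 0. Immediate early genes were low, with Fos at 0, 0 and 1 UMI and Nr4a1 at 0. Of 14 early and heat shock genes 2 were tested, and Jund was higher (3, 25 and 46 UMIs), beside the same 6.88%. The 10 clock genes summed to 287, 119 and 271 CPM, and none was tested.

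Transcripts of other cells were present at low levels. Satellite glial genes summed to 621, 386 and 493 CPM in T and NK cells, against 13461, 12555 and 10037 CPM in all other cells. Myelinating Schwann genes summed to 955, 475 and 551 CPM, against 15067, 18241 and 15130, with Mbp called lower and Pmp22 higher, the latter not with the floor of 3 UMIs. Neuronal genes summed to 47.8, 134 and 290 CPM, macrophage genes to 0, 14.8 and 77.3 CPM, neutrophil genes to 0, 14.8 and 19.3 CPM, mast cell genes to 0, 14.8 and 29.0 CPM, endothelial genes to 143, 148 and 58.0 CPM, fibroblast genes to 0, 14.8 and 67.6 CPM and red cell genes to 95.5, 44.5 and 48.3 CPM. All 4 dendritic cell genes were at 0. Of the B and plasma cell genes, Cd79a (a limit of the rule), Ms4a1 and Jchain were at 0, whereas Ighm had 1, 19 and 23 UMIs, in 1, 11 and 14 cells. That was 282 CPM at day 7 and 222 CPM at day 14, against 23.7 and 28.6 CPM in all other cells. The part of free RNA in these transcripts was not tested.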

How the data were processed

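Cells from the 3 libraries were profiled with droplet chemistry (10x Chromium) that reads the 3′ end of each mRNA. The files deposited hold whole, unnormalised UMI counts of 31053 genes for barcodes called as cells. Per the submitters' processing notes, Cell Ranger 3.0.2 and the mm10 build were used, and whether libraries were downsampled is not given in the sources used here. Cells under 500 genes or above 20% mitochondrial UMIs were left out, and T and NK cells were gated as described. The 32 gene lists and the rule itself were chosen with earlier results of these data known. Of 287 list genes, 286 were found. Counts of the cells were summed per library and scaled to CPM. Genes with at least 20 UMIs over the 3 sums were compared with a pseudocount of 50 CPM. A gene was called at 2-fold or more in the same direction in both injured libraries. The text names the 8 highest and 8 lowest calls by the smaller ratio, if detected in 20% or more of the cells on the higher side, and 15 defining genes detected in 30% or more of the cells of each library. Cd163l1 and the cells named singly were chosen after their values were seen. With 1 library per condition no test was made. Shares have Clopper-Pearson, sums Poisson and ratios conditional binomial intervals. Depth per library is given above. Alternatives covered the cell filter, the rule, denominators, thinning, scaling, pseudocount and filter. The call rule and the interval of a share were tried on simulated data. The simulated counts were independent draws per gene and library, without cells. They therefore do not cover genes whose UMIs lie mostly in 1 cell. Python 3.11.15, numpy 2.4.6, scipy 1.17.1, pandas 2.3.3 and scanpy 1.11.5 (Scrublet, expected rate 5%) were used. Some genes of the lists are not reported here. The Seurat object that the series' text names was not used here.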

Additional observations from a re-analysis of the deposited data

How the results depend on the processing

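No paired analysis was possible because no result comes from a test and a condition had 1 library, and for this reason no replicate could be left out. The higher share of T and NK cells after injury kept its direction with other cell filters, rules, limits, without doublet calls and outside the macrophage gate. It turned with the denominator: of Ptprc+ cells the shares were 9.57%, 7.12% and 9.43% (log2 -0.43 and -0.022 against naïve), and per 100 macrophage gate cells they were 12.3, 8.30 and 11.7 (log2 -0.57 and -0.075). Under a stricter filter (1000 genes or more, 10% mitochondrial UMIs or less) the shares were 1.29% at day 7 and 1.69% at day 14. With all limit genes at 0 the day 7 share was 0.410%, and the log2 ratio of 0.89 had an interval of -0.61 to 2.49 that holds no change. The strict filter gave -0.09 to 2.86 at day 7.

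Counts of genes moved most. In place of 115 higher and 35 lower genes, size factors gave 200 and 14, 10 CPM as pseudocount 205 and 60, 100 CPM 65 and 21, at least 50 UMIs 24 and 9, and at least 3 UMIs 331 and 306. With the limit genes at 0, 21 genes were lower. A floor of 3 UMIs without pseudocount gave 26 and 70. This floor, the denominator outside the macrophage gate and a rule of CD3 with Trac or Trbc2 were chosen after seeing the data. Size factors raised the median ratio of all genes to 0.33 and 0.34. Under each of 11 alternatives the interferon-response median stayed below 0, from -1.54 to -0.06 at day 7 and from -1.36 to -0.34 at day 14. It was closest to 0 under the 3 settings that left 7 naïve cells. Of these settings, the rule of at least 3 of the 6 genes removed the naïve CD4 cell that held 66 UMIs of the list. That cell had only Cd3e and Cd3g of the 6 genes. All 298 values of named genes under alternatives kept their direction, but sizes did not. With the floor of 3 UMIs, of the 8 genes named as higher Tagln2 alone stayed past 2-fold (log2 1.31 and 1.47), and the others stood at 0.05 to 0.73 (AI504432 from 1.99 to 0.05 at day 7). Slfn5, Bst2 and Ppp4r2 were too low to be tested under the 3 settings with 7 naïve cells, and Samhd1 was at -0.69 at day 7 with the limit genes at 0. Of 75 subtype shares 5 fell outside the counting interval of the reported share, which is wide: the CD8 gate was at 0% of naïve cells under the strict filter, the gamma-delta gate at 9.09% at day 7 with the limit genes at 0, and the NK gate at 0% in all 3 libraries with at least 3 of the 6 genes. Within the intervals, the untyped share at day 7 went from 10.5% to 28.9% with thinning, and the gamma-delta share at day 7 from 26.3% to 14.3% under the strict filter. The NK cells had no CD3 gene by their gate and no Trac UMI, so none could reach 3 of the 6 genes. The cause of the other shifts was not tested. The 9 naïve cells limit each comparison of levels.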
